A study of Mus musculus with 10 samples.

Results

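DN1 is the first stage that blood progenitors reach once Notch signalling has started T cell development, and its gene expression was compared here with that of cells of the same origin that received no Notch ligand. The 2 DN1 libraries and the 4 no Notch control libraries were taken by the stage in their labels, as 6 of the 10 mouse RNA-seq libraries of the series. Both groups began as LSK cells (lineage-negative, SCA1+, KIT+ marrow progenitors) of C57BL/6J mice, grown in serum with SCF, FLT3 ligand, IL-6 and IL-11 and without IL-7. DN1 cells came from cultures on densely immobilized Delta1ext-IgG, the outer part of a Notch ligand fused to IgG, and were sorted as KIT++CD44+CD25-. Control cells came from cultures on human IgG1, were harvested on day 14 and were not stated to be sorted, so the effects of the ligand and of the sort cannot be told apart. RNA of each group was drawn from independent LSK isolates. The sources used here give neither the age nor the sex of the mice, nor the day on which DN1 cells were sorted. Each DN1 label carries a date, with no word on what it marks, and the library with the earlier date is called replicate 1 and the later replicate 2. For the control the labels give the names D1, D2, R1 and R2, whose letters they do not explain.

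Notch receptors are cut when they bind Delta or Jagged ligands on a neighbouring surface, and the freed intracellular domain joins the DNA-binding protein RBPJ to switch on targets such as *Hes1*. In the thymus this signal takes incoming progenitors to DN1, a stage that keeps stem cell regulators and can still give rise to myeloid, mast, dendritic and natural killer cells. The transcription factors TCF-1 (encoded by *Tcf7*) and GATA3 act next, and rearrangement of the T cell receptor genes follows in later stages. The same progenitors grown without Notch ligand in these cytokines mostly turn into granulocytes, monocytes and macrophages.

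The DN1 libraries held 22635537 and 18489684 reads on genes, and the control libraries from 20638406 to 35367925. Levels are TMM-scaled CPM (a gene's reads as a share of its library), with DN1 replicate 1 before replicate 2 and the control in the order D1, D2, R1 and R2. A library held at most 3 counts of a gene below a floor of 0.0881 to 0.168 CPM, and such intervals and floors cover counting error only. The log2FC values are DN1 minus control from 1 edgeR fit of all 10 libraries, ± the standard error, and p-values were adjusted over the 12221 genes tested. A fit without 1 DN1 library, also called a fit of the other alone, keeps the control and the later stages DN2a and DN2b. It takes its spread from those groups, so its p-values hold no spread between DN1 isolates. In bulk RNA, fewer cells of a type and less RNA per cell cannot be told apart. Of the gate genes, *Kit* (the SCF receptor) stood at 368 and 319 CPM in DN1 and 26.6, 134, 37.1 and 69.8 in the control and so was higher in DN1. *Cd44* (an adhesion receptor) had 116 and 159 CPM against 538, 416, 588 and 332 and was lower in DN1, although the sorted cells carried the protein. *Il2ra*, which encodes CD25, had 23.2 and 18.9 CPM against 0.392, 2.08, 0.558 and 1.68, so the CD25- cells held more of this transcript than the control. All 3 were used by the sort and are no finding.

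In DN1, many T lineage and progenitor genes, 2 granzyme genes and the mast cell chymase genes *Mcpt1* and *Mcpt4* were higher than in the no Notch control, and most of the macrophage, lysosomal, innate immune and granulocyte genes were lower. At an adjusted p under 0.05, 1753 genes (14.3% of those tested) were higher in DN1 and 2081 (17.0%) were lower. Of these, 1648 higher and 2079 lower genes lay outside the low-dose and high-dose Notch promoter lists of the study, and the lists of genes described below leave those dose genes out. In 860 genes (7.04%) the log2FC was 2 or more, and in 1559 (12.8%) it was -2 or less. Both DN1 libraries lay above every control library for 2869 genes (23.5%) and below every control library for 3117 (25.5%). Scaling to library size alone moved the median log2FC of all genes from 0.01 to 0.27 and the share of called genes that were higher from 45.7% to 61.4%, so changes under about 0.3 depend on the scaling. Without DN1 replicate 2 the counts were 825 higher and 1042 lower, and without control R1 they were 1086 and 1525.

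**Figure D1:**
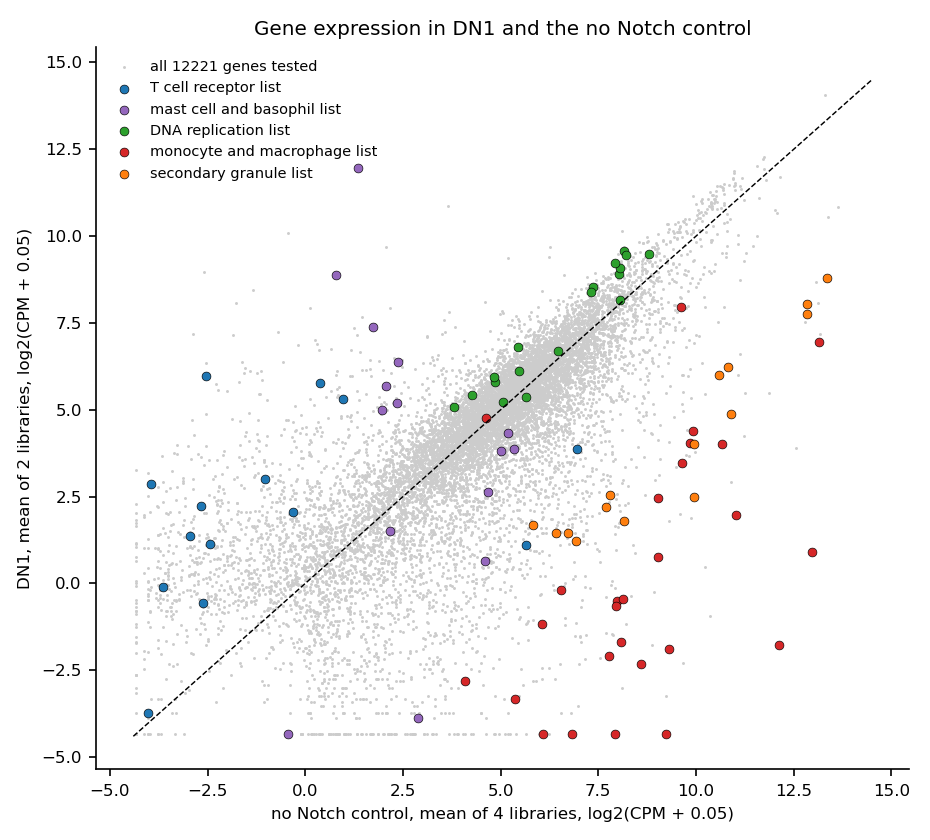
Mean expression of the 12221 genes tested in the no Notch control (x axis, mean of 4 libraries) and in DN1 (y axis, mean of 2 libraries), both as log2(CPM + 0.05), with members of 5 gene lists outside the dose lists coloured. T cell receptor and several mast cell genes lie above the dashed line of equal expression, and macrophage and secondary granule genes lie far below it.

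Notch target genes were higher in DN1, while several genes for Notch receptors and their processing were lower. Of the 6 tested targets outside the dose lists, 4 were higher and 1 was lower, with a median log2FC of 4.02 against 0.01 over all genes tested. *Dtx1*, an E3 ligase that is itself a Notch target, stood at 47.5 and 85 CPM in DN1 and 0, 0.369, 0.675 and 0.458 in the control. The groups did not overlap, and the log2FC was 7.34 ± 0.63 (adjusted p = 0.00017). *Notch3*, a receptor gene that Notch signalling induces, had 5.19 and 3.14 CPM against 0.056, 0.507, 0.0587 and 0.0305, a log2FC of 4.70 ± 0.88. *Heyl* and *Hey1*, which encode repressors of the HES family, also rose. *Heyl* had 1.26 and 0.249 CPM in DN1, over 4-fold more in replicate 1, and 1 count in the 4 control libraries. The ratio of the groups was 88.2 (95% counting interval 14.9 to 3573), and with replicate 2 alone the gene was too low to test. *Hey1* rose by 3.35 ± 1.09, a call that was lost with either DN1 library alone (adjusted p = 0.0936 and 0.129). *Igf1r*, a growth factor receptor, fell by 1.23 ± 0.41, and its DN1 replicate 1 (36 CPM) lay within the control range of 34.9 to 74.6. This call, near the threshold at an adjusted p of 0.0472, was lost without DN1 replicate 2, without control D2, R1 or R2, with the label year as a block, with scaling to library size alone and in a fit of the 6 libraries alone. *Myc* did not pass, at 198 and 221 CPM against 49.6, 137, 70.6 and 147, but was called higher without control D2 (adjusted p = 0.0482), without control R2 (0.0417) and with scaling to library size alone (0.0459). Without DN1 replicate 1, 2 targets were higher. For comparison, *Hes1*, a dose-listed target, had 42.2 and 53.1 CPM against 0.056, 0.231, 0.0587 and 0.305.

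Among 24 tested receptors, ligands and processing genes, 1 was higher and 9 were lower, and without DN1 replicate 2 none was higher and 5 were lower. *Mfng*, a fringe enzyme that adds sugars to Notch receptors, rose from 12.2, 26.7, 18.8 and 22.8 CPM in the control to 47.2 and 75.1 in DN1, and the groups did not overlap. Its sister enzyme *Lfng* fell by 1.75 ± 0.38. *Notch2* fell by 1.81 ± 0.27, with 39.1 and 36.9 CPM in DN1 against 132, 90.4, 147 and 163, while *Notch1*, the receptor that T cell development depends on, stood at 67.1 and 80.4 and 47.2, 45.6, 79.1 and 94.1 CPM, a log2FC of 0.15 ± 0.31 (adjusted p = 0.744). The secretase genes *Ncstn*, *Psen2* and *Aph1a* fell by 0.67 to 1.86 on the log2 scale, the receptor protease gene *Adam17* by 1.06, the Notch inhibitor gene *Numb* by 1.90 and the coactivator gene *Maml1* by 1.04. *Rbpj* had 64.7 and 138 CPM against 171, 229, 169 and 151, below every control library, and did not pass (adjusted p = 0.0728), but it was called lower by DESeq2 (adjusted p = 0.0314), with the label year as a block (0.0416) and without DN1 replicate 2 (0.02).

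The first T lineage regulators were on in DN1 and nearly off in the control. *Tcf7* stood at 238 and 250.3 CPM in DN1 and 0.392, 1.89, 0.47 and 1.4 in the control, a log2FC of 7.87 ± 0.55 (adjusted p = 6.91e-05). Both DN1 libraries lay far above all 4 control libraries. *Gata3* had 11.8 and 13.8 CPM against 0.112, 0.231, 0.206 and 0.183, a log2FC of 6.06 ± 0.35 (adjusted p = 5.29e-05). *Tox*, a factor of early lymphoid development, had 4.93 and 5.48 CPM against 0, 0, 0.176 and 0.0305, with 2 control libraries at 0 counts. In these 3 genes the DN1 libraries lay close together and above every control library. Of 13 tested T lineage factors, 5 were higher and 2 lower, with a median of 0.83, or 0.53 without DN1 replicate 1. The others higher were the E protein genes *Tcf3* (1.26 ± 0.36) and *Tcf12* (0.83 ± 0.28). The 2 lower genes were *Zbtb7b*, which later directs CD4 T cells (-3.97 ± 0.82), and *Id3*, an inhibitor of E proteins (-2.21 ± 0.75). Without DN1 replicate 1, and also without control R1, 3 were higher. *Lef1* and *Ikzf3* were too low to test.

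Genes of the T cell receptor complex, of its signalling and of recombination were mostly higher in DN1. Of 14 tested members 10 were higher and 2 lower, with a median log2FC of 4.29. *Cd3g*, a CD3 chain of the receptor, stood at 30.4 and 96 CPM in DN1 and 0.112, 0.138, 0.0587 and 0.183 in the control. Its log2FC was 8.94 ± 0.58 (adjusted p = 5.63e-05), and DN1 replicate 2 was the higher. *Lck*, the kinase that starts receptor signalling, had 33.2 and 76.2 CPM against 0.616, 2.35, 0.617 and 1.37, a log2FC of 5.46 ± 0.58. *Trat1*, a receptor-associated adaptor, had 5.08 and 9.42 CPM in DN1 and 2 counts in 1 control library, a ratio of 369 (95% counting interval 101 to 3057). *Lat*, the scaffold below the receptor, rose by 4.40 ± 0.55, from 2.91, 2.31, 0.969 and 1.4 to 62 and 16.7 CPM, and here DN1 replicate 1 was the higher. Recombination genes rose at low levels. *Rag2* reached 2.08 and 2.94 CPM and *Dntt*, which adds untemplated bases at the joints, 3.93 and 5.34, against at most 0.28 CPM in any control library. *Ptcra* (the pre-T cell receptor alpha chain), *Zap70*, *Txk* and *Cd247* made up the remaining rises, with a log2FC of 2.28 to 4.45. The 2 genes that fell were the costimulatory receptor gene *Cd28*, at 1.19 and 2.99 CPM against 67.3, 38.3, 69.2 and 26.4 (-4.60 ± 0.63), and *Il7r*, which encodes the IL-7 receptor, at 7.94 and 21.5 against 306, 40, 97.2 and 52.6 (-3.07 ± 0.90). The call of *Il7r* was lost with either DN1 library alone (adjusted p = 0.0728 and 0.146), while that of *Cd28* was kept with each. *Cd2*, *Cd4*, *Cd8a* and *Cd8b1* were too low to test.

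Promoters were read from RefSeq on GRCm38.p6 over 250 bases before to 50 after the gene start, and the RBPJ core GTGGGAA was searched on both strands. It occurs in the promoters of 7.25% of the 27025 genes of the table. The table held promoters of 18 of the 25 T cell receptor list genes, too few to give a share for the list, and 5 of the 18 hold the letters. In the Notch target list 2 of 6 genes with a promoter do, *Hes5* and *Hey2*, both too low to test. The core was in 95 of the 1297 genes called higher that have a promoter in the table, in 129 of 1565 called lower and in 666 of the 9229 tested, with promoters found for too few of them to give shares. The 3 shown belong to the genes whose values were given above, to let the place of the core be compared. It begins at base -175 from the start in *Cd3g* (chr9:44980382-44980681, minus strand), at -139 in *Trat1* (chr16:48772013-48772312, minus strand) and at -81 in *Lat* (chr7:126369519-126369818, minus strand), on the gene's own strand in *Cd3g* and on the other strand in the other two. Capitals mark the core, and a match is a description and not a measured binding site.
Cd3g: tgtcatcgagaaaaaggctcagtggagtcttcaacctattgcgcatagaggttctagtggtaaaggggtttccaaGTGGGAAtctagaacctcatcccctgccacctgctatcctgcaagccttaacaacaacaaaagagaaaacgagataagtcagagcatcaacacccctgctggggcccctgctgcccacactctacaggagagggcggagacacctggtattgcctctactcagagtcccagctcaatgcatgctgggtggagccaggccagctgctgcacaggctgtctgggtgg
Trat1: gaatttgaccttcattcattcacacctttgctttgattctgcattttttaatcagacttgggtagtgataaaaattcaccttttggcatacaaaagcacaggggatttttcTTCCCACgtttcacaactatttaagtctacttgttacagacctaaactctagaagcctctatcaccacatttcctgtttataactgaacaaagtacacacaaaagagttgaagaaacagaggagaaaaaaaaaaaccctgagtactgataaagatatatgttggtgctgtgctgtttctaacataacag
Lat: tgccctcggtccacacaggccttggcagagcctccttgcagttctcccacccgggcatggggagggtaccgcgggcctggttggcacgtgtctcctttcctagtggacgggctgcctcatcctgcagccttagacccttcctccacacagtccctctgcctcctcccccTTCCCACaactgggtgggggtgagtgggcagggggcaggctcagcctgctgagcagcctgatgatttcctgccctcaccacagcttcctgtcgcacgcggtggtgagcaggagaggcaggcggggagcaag

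**Figure D2:**
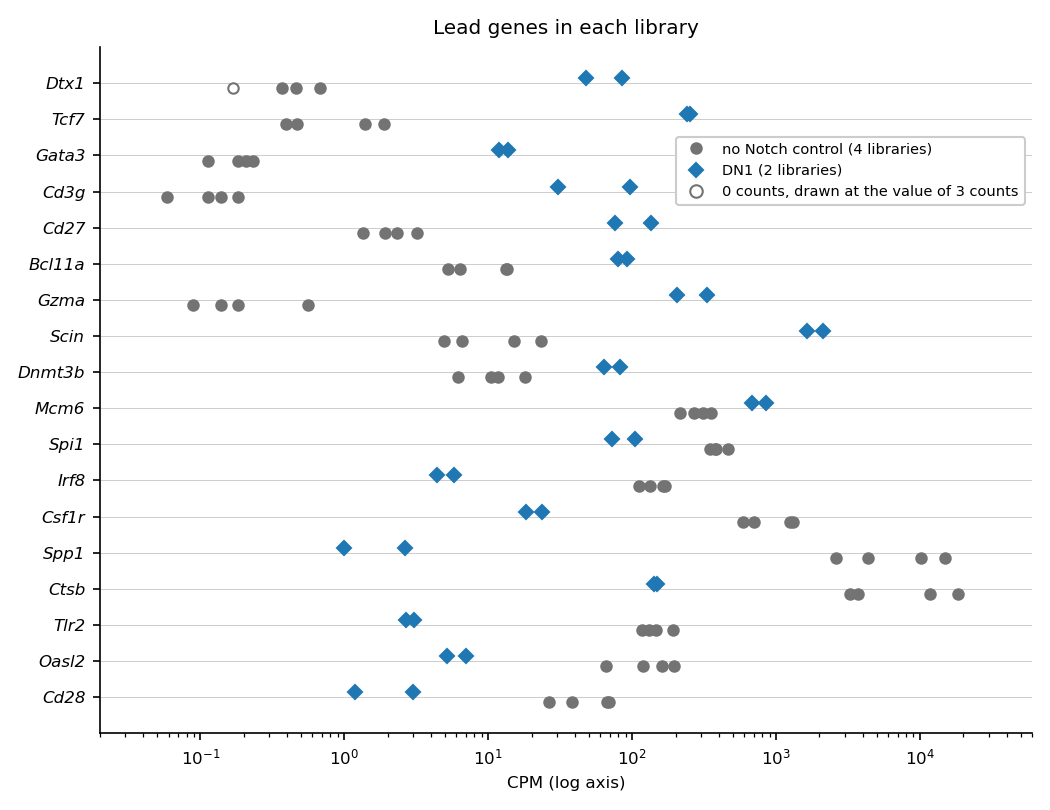
Expression of 18 genes described in the text, as CPM on a log axis, in each DN1 library (diamonds) and each no Notch control library (circles), with a library at 0 counts drawn open at the value of 3 counts. The DN1 libraries lie apart from all 4 control libraries for each gene shown, above them from Dtx1 to Mcm6 and below them from Spi1 to Cd28.

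Stem and progenitor regulators were higher in DN1 more often than lower. Of 25 tested, 10 were higher and 3 lower, with a median log2FC of 0.87, which was 0.24 with the label year as a block. *Cd27*, a costimulatory receptor of lymphoid progenitors, stood at 75.6 and 134 CPM in DN1 and 1.34, 2.31, 1.91 and 3.2 in the control, a log2FC of 5.57 ± 0.35 (adjusted p = 5.42e-05). *Bcl11a*, needed for lymphoid progenitors, had 92.3 and 80.3 CPM against 5.21, 13.5, 6.34 and 13.2 (3.17 ± 0.40), and *Meis1*, a stem cell homeobox gene, 43.8 and 23.8 against 3.98, 3.18, 3.41 and 3.48 (3.26 ± 0.40). The groups did not overlap in any of these 3 genes. *Cd34*, a surface marker of progenitors, and *Flt3*, the FLT3 ligand receptor, were uneven in DN1. *Cd34* had 363 and 991 CPM and *Flt3* 20.2 and 90.1, against at most 129 and 7.47 CPM in any control library. *Gfi1b*, *Gata2*, *Tal1*, *Erg* and *Hhex* completed the calls, and *Gata2*, at 168 and 15.6 CPM against 4.76, 21.1, 3.35 and 8.76, lay within the control range in replicate 2. *Gfi1*, which drives neutrophil development, fell by 3.09 ± 0.76, *Fli1* by 1.29 and the stem cell antigen gene *Ly6a* by 1.74. The calls of *Gfi1* and *Fli1* were lost with either DN1 library alone. Without DN1 replicate 1 the list gave 6 higher and none lower, and without replicate 2 it gave 1 lower. The Hoxa genes of the list did not pass, and *Hoxa9* stood at 3 and 15.1 CPM against 5.38, 21.2, 12.2 and 25.9.

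Granzyme genes were among those most changed. *Gzmb*, a serine protease of cytotoxic granules, stood at 1939.8 and 229.8 CPM in DN1 and 0.784, 1.01, 0.235 and 0.732 in the control, a log2FC of 10.64 ± 0.88 (adjusted p = 0.000132). *Gzma*, a second granule protease, had 331 and 203 CPM against 0.56, 0.138, 0.0881 and 0.183, a log2FC of 10.21 ± 0.77 (adjusted p = 8.7e-05). Replicate 1 of DN1 held 8.44 times as much *Gzmb* as replicate 2 and 1.63 times as much *Gzma*, and both lay above every control library. In the natural killer and innate lymphoid list, of 6 tested genes these 2 were higher and 1, the E protein inhibitor gene *Id2*, was lower (46.1 and 36.5 CPM against 319, 232, 232 and 111), a call lost without DN1 replicate 2. *Nkg7*, a granule membrane gene, had 162 and 163 CPM against 12.5, 185, 14.6 and 42.9 and did not pass. Only control D2 reached the DN1 level, and without it *Nkg7* was called higher (log2FC 2.79, adjusted p = 0.00419), as it was with controls R1 and R2 only. The defining killer cell genes *Ncr1*, *Eomes*, *Tbx21*, *Prf1* and *Klrg1* were too low to test. The summed level of the 17 list genes was 2487 and 641 CPM in DN1 and from 158 to 425 in the control, and the part of killer cells in the granzyme values was not tested.

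Of the mast cell genes, the chymase genes *Mcpt1* and *Mcpt4* and the IgE receptor gene *Fcer1a* were higher in DN1, most of all in replicate 1. *Mcpt1* encodes a chymase of mucosal mast cells and held 6269 and 1732 CPM in DN1 and 6.11, 3.6, 0.235 and 0.061 in the control, a log2FC of 10.69 ± 1.55 (adjusted p = 0.0016). *Mcpt4*, another chymase gene, had 801 and 133 CPM against 5.38, 0.6, 0.117 and 0.61 (8.21 ± 1.34). *Fcer1a*, the IgE-binding chain of the high-affinity Fc receptor, had 268 and 62.1 against 3.81, 6.5, 0.822 and 1.98 (5.67 ± 0.92). Replicate 1 of DN1 was 3.62, 6.02 and 4.33 times replicate 2 in these 3 genes, and both lay above every control library. Of 15 tested mast cell and basophil genes, 7 were higher and 3 lower (median -0.66), the others higher being *Ms4a2*, *Il1rl1*, *Slc18a2* and *Cyp11a1*. With DN1 replicate 2 alone 3 were higher and with replicate 1 alone 7. The sign of the median turned with the control libraries used, to 1.19 without D1, 1.24 without D2, 0.93 without R2, 0.74 with D1 and D2 only and 3.16 with R1 and R2 only. The tryptase genes *Tpsb2* and *Tpsab1* and the basophil protease gene *Prss34* were the ones that fell, of which 1 was called without control D1 or R2 and none without DN1 replicate 2. *Tpsab1* had no count in either DN1 library and was at least 5.24-fold lower than in the control, while *Tpsb2* had 1 count in DN1. Both tryptase calls were lost when either DN1 library was left out. *Cma1*, also a chymase gene, stood at 3.71 and 1.84 CPM against 14.1, 1.29, 0.206 and 2.14 and did not pass, and neither did *Hpgds*, *Hdc* and *Mitf*, although *Hdc* was called lower without DN1 replicate 1 and *Mitf* lower without control D2 and by DESeq2. The summed level of the 17 list genes was 8743 and 2377 CPM in DN1 and from 159 to 309.8 in the control, and the part of mast cells among the KIT++ sorted cells in these values was not tested.

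Of 10 tested erythroid and megakaryocyte genes, *Klf1* and *Gata1*, transcription factor genes of red cell precursors, were higher. The platelet chemokine genes *Pf4* and *Ppbp* were lower. With so few calls the list is not set apart from all genes tested, of which 14.3% were higher and 17.0% lower. *Klf1* had 51.6 and 0.598 CPM in DN1 and 0.504, 1.61, 0.264 and 0.336 in the control, and *Gata1* 79.7 and 1.89 and 0.84, 5.07, 0.235 and 1.04. Both rises came from DN1 replicate 1, since DN1 replicate 2 lay within the control range, and *Gata1* had a log2FC of 0.08 with that library alone (adjusted p = 0.969). Neither fall was called without DN1 replicate 2 or without control R1. The 4 globin genes of the list had no count in any of the 6 libraries.

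Many genes for DNA replication and nucleotide synthesis and some for ribosome assembly were higher in DN1, by smaller factors than the lineage genes above. Of 18 tested DNA replication genes 10 were higher and none lower, with a median log2FC of 1.05. *Mcm6*, a subunit of the replicative helicase, stood at 679 and 850.2 CPM in DN1 and 267, 350.3, 216 and 310.1 in the control, a log2FC of 1.42 ± 0.28 (adjusted p = 0.0057). *Pola1*, the primase-associated polymerase, had 95.9 and 129 CPM against 32.1, 35, 39 and 69.3 (1.36 ± 0.31), and *Gins1* 44.7 and 41.1 against 18.7, 17.7, 19.2 and 20.7 (1.17 ± 0.28). The groups did not overlap in these genes, and each of the 6 Mcm helicase genes passed. Of 17 nucleotide and serine synthesis genes, 11 were higher and none lower (median 1.05). *Paics*, a purine synthesis enzyme, had 509.8 and 1126 CPM against 266, 396, 216 and 269 (1.51 ± 0.34) and *Tyms*, which makes thymidylate, 112 and 137 against 44.7, 56.5, 55 and 74.4 (1.11 ± 0.24). Ribosome biogenesis genes gave 6 higher and none lower of 15 (median 0.91). *Wdr12* rose by 1.42 ± 0.19, *Gnl3* by 1.33 ± 0.30 and *Fbl* by 1.32 ± 0.21, the last of which encodes the rRNA methylase fibrillarin.

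Mitosis genes were not called. None of 18 passed by edgeR or DESeq2, 3 had an unadjusted p under 0.05, 3 were higher with scaling to library size alone, and 2 (*Cdk1* and *Ccnb2*) without control D2. Their median log2FC was 0.34, but 0.08 with controls R1 and R2 only and 0.6 with D1 and D2 only. *Cdk1*, the mitotic kinase, stood at 225 and 181 CPM against 113, 172, 120.3 and 133 (0.59 ± 0.25, adjusted p = 0.0947). Among D cyclins and CDK inhibitors 1 of 9 was called, *Cdkn1a* (p21), which fell from 186, 174, 193 and 117 CPM to 33.8 and 12.9 (-2.84 ± 0.42). With DN1 replicate 1 alone, 1 replication gene, no nucleotide synthesis gene and 3 ribosome biogenesis genes passed, and with replicate 2 alone 5, 8 and 6, where 6.84% and 11.1% of all genes tested were higher. Without control R1, 6 replication and 5 nucleotide synthesis genes were higher. Under scaling to library size alone the medians of the 3 lists were 1.28, 1.27 and 1.15.

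Of the 13 DNA methylation and Polycomb genes 3 were higher and none lower, and with so few the list is not set apart from the 14.3% of all genes that were higher. Without control R2 5 were higher, and with controls R1 and R2 only 1 was higher and 2 were lower. *Dnmt3b*, a de novo DNA methyltransferase, had 63.4 and 82.4 CPM in DN1 against 6.11, 11.7, 10.4 and 18.1 (2.65 ± 0.47, adjusted p = 0.00376). *Tet1*, which oxidizes methylcytosine, had 3.67 and 5.09 against 0.448, 1.11, 0.705 and 1.56 (2.18 ± 0.60), and *Ezh2*, the Polycomb methyltransferase, 142 and 127 against 48.5, 51.8, 53.4 and 88.6 (1.15 ± 0.28). The groups did not overlap in any of the 3. *Igf2*, the fetal growth factor gene next to the imprinted *H19*, had 150.4 and 11 CPM in DN1 and 0.168, 0.231, 0.0587 and 0.0305 in the control, a log2FC of 9.47 ± 1.17. Replicate 1 of DN1 held 13.6 times as much as replicate 2, and both stood above every control library. Its receptor gene *Igf2r*, imprinted in the opposite parental sense, fell by 3.55 ± 1.02, with 6.23 and 1.1 CPM in DN1 against 90.4, 9.5, 43 and 30.8. That call was lost without DN1 replicate 2, without control R1 and with controls D1 and D2 only.

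**Figure D3:**
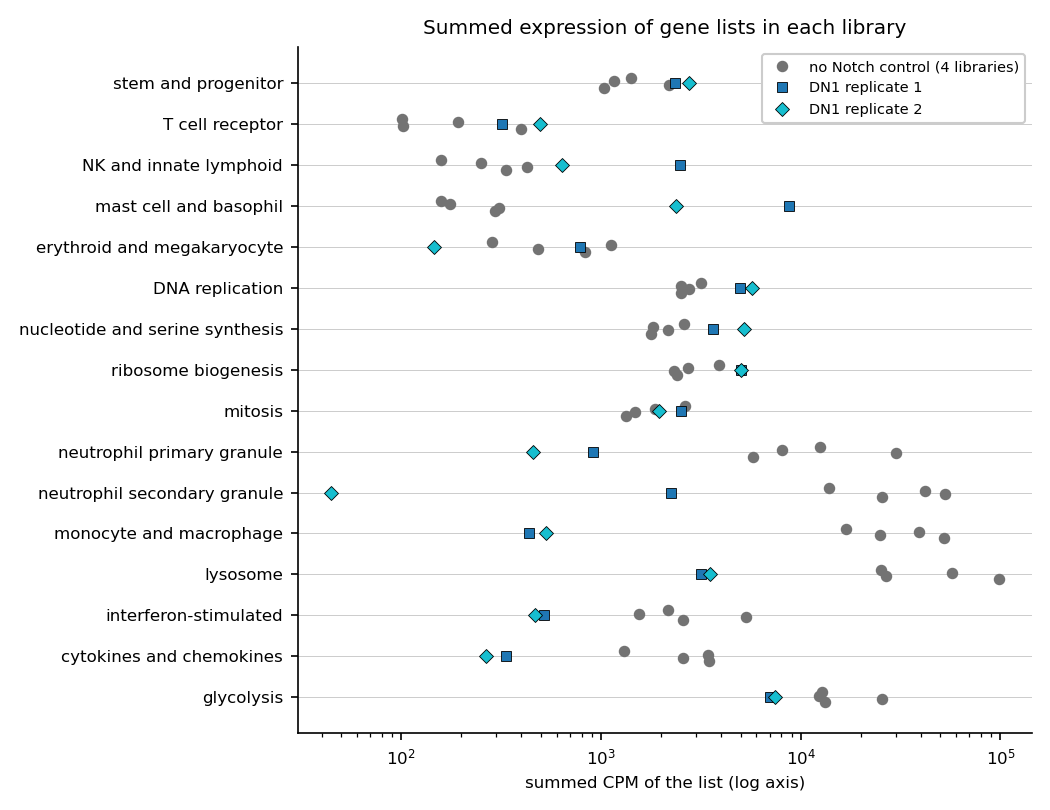
Summed CPM (log axis) of all members of 16 gene lists found in the files, dose-listed members included, in each library. The DN1 libraries (blue square replicate 1, cyan diamond replicate 2) lie above the 4 control libraries (grey circles) for the DNA replication, nucleotide synthesis and ribosome lists and below them for the macrophage, lysosome and interferon lists, and lie farthest from each other for the secondary granule list.

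Macrophage genes were lower in DN1 almost without exception. Of 27 tested monocyte and macrophage genes none was higher and 25 were lower, with a median log2FC of -8.60. *Spp1* (osteopontin, a secreted phosphoprotein of macrophages) stood at 2.63 and 0.997 CPM in DN1 and 14937, 4317, 10102 and 2598 in the control, a log2FC of -12.08 ± 1.46 (adjusted p = 0.000777). *Csf1r*, the receptor through which M-CSF sustains macrophages, had 18.3 and 23.8 CPM against 1304, 591, 1249 and 706 (-5.51 ± 0.51). *Fcgr1*, the high-affinity IgG receptor, had 0.556 and 0.748 against 427, 291, 141 and 152 (-8.60 ± 0.82). Both DN1 libraries lay below every control library in these genes, and for *Spp1* replicate 1 was 2.64 times replicate 2. *Cx3cr1* and *Ccr2*, both chemokine receptor genes of monocytes, were the 2 that did not pass, and *Ccr2* differed between the DN1 libraries, at 45.7 and 455 CPM against 386, 856, 796 and 1083. With the label year as a block *Ccr2* was called lower. *Cd163*, a scavenger receptor gene too low to test, had 3.41 and 0.748 CPM against 0.28, 0.692, 0.323 and 0.336. Under another filter on low counts edgeR called it higher (log2FC 2.35, adjusted p = 0.0388). The summed level of the 31 list genes was 437 and 532 CPM in DN1 and from 16914 to 52376 in the control, and 7 of the 31 had no count in DN1. *Ccr2* made up most of the sum in replicate 2, and without it the sums were 391.4 and 77.6 CPM in DN1. Of the 14 members at 1 CPM or more in a DN1 library, 9 were over 4-fold higher in replicate 1, among them *Lyz1* at 30.5 and 1.6 CPM and *Lgals3* at 7.23 and 0.499, and 2 in replicate 2, with a median log2 ratio of replicate 1 over replicate 2 of 2.54. With DN1 replicate 1 alone 23 members were lower and with replicate 2 alone 24.

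Lysosomal genes were lower as well. Of 33 tested none was higher and 30 were lower (median -3.02). *Ctsb*, a cathepsin that degrades protein in lysosomes, stood at 149 and 142 CPM in DN1 and 18257, 3242, 11813 and 3726 in the control (-5.99 ± 0.88). *Psap*, the precursor of the saposins, had 285 and 249 CPM against 13271, 5819, 10551 and 6094 (-5.06 ± 0.50, adjusted p = 0.000329), and the membrane protein gene *Lamp1* 229.8 and 270.3 against 2238, 1326, 2006 and 1174 (-2.75 ± 0.35). The DN1 libraries lay close together and below every control library in each gene, and control D1 was the highest. *Ctsb*, *Psap*, *S100a9*, *Fth1*, *Ftl1* and *Lyz2* were the called genes whose share of all gene reads fell most. *Ctsb* went from 0.851% of reads in the control to 0.0165% in DN1. The ferritin genes *Fth1* and *Ftl1*, which store iron, fell by 2.83 and 2.79 on the log2 scale, and both calls were lost with either DN1 library alone. Among genes that handle sterols, 8 of 9 efflux and storage genes were lower, but 2 with DN1 replicate 1 alone and 3 with replicate 2 alone. *Abca1*, a cholesterol exporter, had 2.26 and 2.74 CPM against 329, 45.1, 75.1 and 98.8 (-5.77 ± 1.35), and *Soat1*, which esterifies cholesterol, 22.3 and 50.6 against 696, 164, 424 and 282 (-3.43 ± 0.67). *Fabp4*, a fatty acid carrier of macrophages, had no count in DN1 and was at least 582-fold lower. Of 18 cholesterol synthesis genes 2 were higher, *Idi1* (1.41 ± 0.30) and *Cyp51* (0.86 ± 0.27), and 1 was lower, while without DN1 replicate 2 none of these 3 calls was made and without control D2 4 of the 18 were higher.

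Of the myeloid transcription factors 12 of 13 were lower and none higher (median -4.76). *Spi1* encodes PU.1, which drives macrophage and granulocyte fate, and stood at 104 and 72.5 CPM in DN1 and 347, 375, 465 and 379.6 in the control, a log2FC of -2.15 ± 0.25 (adjusted p = 0.000709). *Irf8*, which directs monocytes, had 5.79 and 4.39 CPM against 168, 111, 134 and 164 (-4.82 ± 0.34, adjusted p = 7.25e-05). *Irf5* had 18 and 14.4 CPM against 172, 136, 144 and 115 (-3.13 ± 0.34). Both DN1 libraries lay below every control library in these 3 genes. *Cebpa*, *Cebpb* and *Cebpd* fell by 3.95 to 4.88. *Klf4* was the 1 that did not pass (-2.10 ± 1.24).

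Neutrophil genes were lower in DN1 and set its 2 libraries apart. All 8 primary granule genes were tested, 6 were lower and none higher (median -4.71). With DN1 replicate 1 alone 4 were lower (median -3.85) and with replicate 2 alone 6 (median -7.09). *Mpo* (myeloperoxidase) stood at 343 and 24.1 CPM in DN1 and 2958, 14448, 4251 and 6716 in the control, a log2FC of -5.27 ± 1.24 (adjusted p = 0.0124). *Elane* (neutrophil elastase) had 36.6 and 1.15 CPM against 528, 7006, 591 and 1415 (-6.98 ± 1.89). *Prtn3* (proteinase 3) had 112 and 15.8 against 1017, 4177, 1432 and 2044 (-5.08 ± 1.03), and *Ctsg* (cathepsin G) 79.3 and 8.92 against 548, 2277, 745 and 1269 (-4.78 ± 1.01). Both DN1 libraries lay below all 4 control libraries in these genes, replicate 2 by far the lower. The granule regulator gene *Cebpe* had 10.6 and 0.648 CPM against 38, 138, 87.1 and 53.7 and *Ms4a3*, which marks granulocyte and monocyte precursors, 50.8 and 4.94 against 441, 1190.1, 552 and 604. *Serpinb1a*, an inhibitor of these proteases, stood at 268 and 376 CPM within a control range of 233 to 664, and *Prss57* at 14.2 and 24.7 against 25.2, 138, 43.7 and 51.7. Neither passed, although *Prss57* was called lower by DESeq2, without control D1, without control D2 and with controls R1 and R2 only.

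The PU.1 core GAGGAAG was searched in the same way in the promoters of these genes, and 15.4% of the genes of the table hold it. The table held 5 of the 8 primary granule genes, too few to give a share, and *Mpo*, *Elane*, *Prtn3* and *Ctsg* hold the letters while *Ms4a3* does not. These 4 are shown because they are the granule protease and peroxidase genes whose values were given above. The core begins at bases -247 and -224 in *Mpo* (chr11:87793534-87793833, plus strand), at -85 in *Elane* (chr10:79886062-79886361, plus strand), at -95 in *Prtn3* (chr10:79879417-79879716, plus strand) and at -216 in *Ctsg* (chr14:56102525-56102824, minus strand), on the gene's own strand in each. Of the 25 monocyte and macrophage genes with a promoter in the table, 8 (32.0%) hold it, *Spp1* and *Fcgr1* among them, and of 14 secondary granule genes 4 (28.6%). It is held by 325 of the 1565 genes called lower, 196 of the 1297 called higher and 1532 of the 9229 tested that have a promoter there. Capitals mark the core.
Mpo: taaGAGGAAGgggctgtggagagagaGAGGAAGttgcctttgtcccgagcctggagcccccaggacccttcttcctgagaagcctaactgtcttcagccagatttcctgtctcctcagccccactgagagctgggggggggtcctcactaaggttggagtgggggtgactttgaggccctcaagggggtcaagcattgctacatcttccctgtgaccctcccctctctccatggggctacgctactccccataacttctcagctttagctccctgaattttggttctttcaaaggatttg
Elane: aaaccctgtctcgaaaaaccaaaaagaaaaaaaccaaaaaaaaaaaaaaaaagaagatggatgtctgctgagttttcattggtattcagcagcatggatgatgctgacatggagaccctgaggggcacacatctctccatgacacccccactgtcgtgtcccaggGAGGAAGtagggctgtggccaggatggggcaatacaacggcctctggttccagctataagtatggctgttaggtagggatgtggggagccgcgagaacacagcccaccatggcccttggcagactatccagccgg
Prtn3: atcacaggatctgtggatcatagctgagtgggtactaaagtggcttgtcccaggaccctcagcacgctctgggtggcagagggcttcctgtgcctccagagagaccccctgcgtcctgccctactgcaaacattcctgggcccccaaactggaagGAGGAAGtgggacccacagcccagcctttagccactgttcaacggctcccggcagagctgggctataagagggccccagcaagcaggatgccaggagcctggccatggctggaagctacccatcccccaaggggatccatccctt
Ctsg: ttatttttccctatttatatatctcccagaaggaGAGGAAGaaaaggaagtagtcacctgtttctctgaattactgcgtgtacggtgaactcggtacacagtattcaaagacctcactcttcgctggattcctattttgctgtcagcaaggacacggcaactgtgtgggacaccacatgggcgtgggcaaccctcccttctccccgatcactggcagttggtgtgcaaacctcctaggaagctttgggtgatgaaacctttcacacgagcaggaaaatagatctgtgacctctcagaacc

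Genes of secondary and tertiary granules and of mature neutrophils were lower for 13 of 15 tested and higher for none (median -5.25). With DN1 replicate 1 alone the median was -4.31 and 9 were lower, and with replicate 2 alone it was -10.20 and 14 were lower. Without control R1 7 were lower. *Mmp8* (neutrophil collagenase) had 11 and 0.15 CPM in DN1 and 852, 1490.5, 1008 and 621 in the control, a log2FC of -7.46 ± 1.5 (adjusted p = 0.00793). *Ngp*, a granule protein of late precursors, had 428 and 6.28 CPM against 4714, 14745, 8466 and 1654. *S100a9*, a subunit of calprotectin, had 877 and 16.4 against 7922, 16689, 12712 and 4634. Replicate 1 of DN1 was 73.2, 68.2 and 53.5 times replicate 2 in these genes and still below the lowest control library. *Ltf* (lactoferrin), at 149 and 0.997 CPM against 1654, 1018, 4148 and 384, and *Retnlg*, at 5.34 and 0.0499 against 161, 42.8, 133 and 5.31, did not pass (adjusted p = 0.0617 and 0.0746), and for *Retnlg* DN1 replicate 1 overlapped with the control. With the label year as a block *Ltf* and *Retnlg* were called lower (adjusted p = 0.0459 and 0.0266), so that 15 of 15 were, as by DESeq2. The members differed between the DN1 libraries by a log2 ratio of 0.94 (*Cxcr2*, a chemokine receptor) to 7.22 (*Ltf*). The list summed to 2244 and 44.6 CPM in DN1 and from 13821 to 52851 in the control. No member was at 0 in both DN1 libraries, and the part of neutrophils in the difference between them was not tested.

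**Figure D4:**
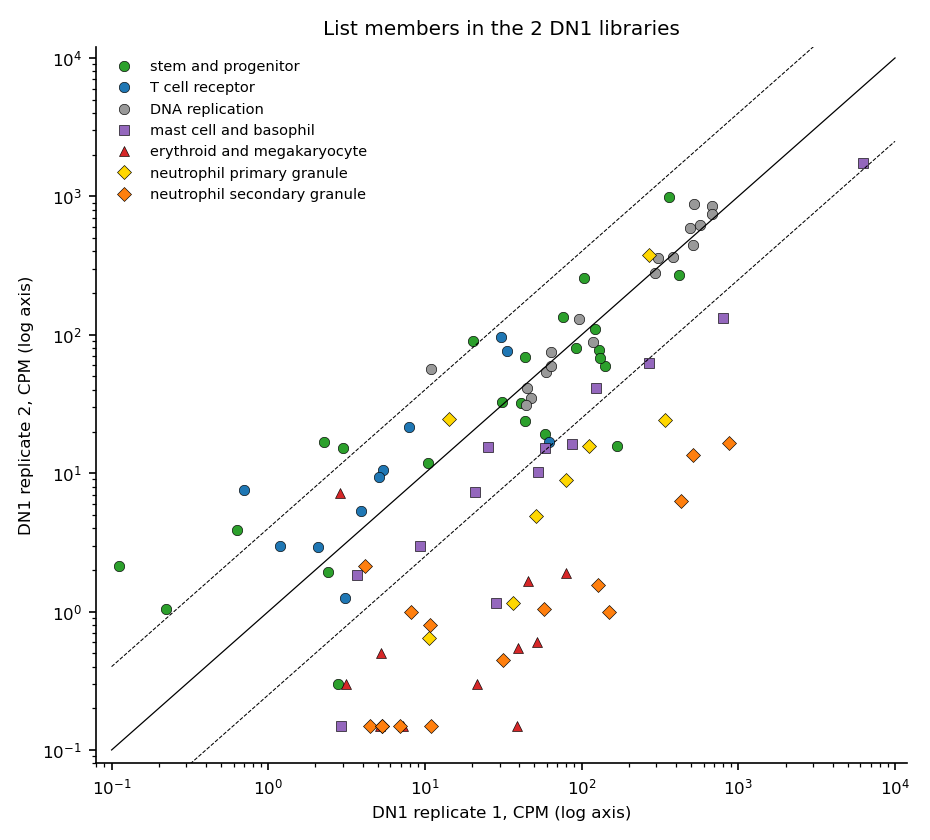
CPM of list members outside the dose lists in DN1 replicate 1 (x axis) and replicate 2 (y axis), log axes, for members at 1 CPM or more in either, with values under the floor of 3 counts drawn at it. The solid line marks equal values and the dashed lines a 4-fold difference. Most neutrophil and erythroid genes and several mast cell genes fall on the side of DN1 replicate 1 beyond the dashed lines, and T cell receptor and DNA replication genes lie mostly between them.

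Receptors and signals of innate immunity were lower almost throughout. Of 22 tested pattern recognition and inflammasome genes 19 were lower and none higher (median -3.84). *Tlr2*, a receptor for bacterial lipoproteins, had 2.67 and 3.04 CPM in DN1 against 118, 146, 193 and 131 (-5.68 ± 0.38, adjusted p = 5.63e-05), and *Tlr9*, which senses unmethylated DNA, 0.334 and 0.449 against 21.1, 33.2, 12.7 and 16.3 (-5.72 ± 0.62). Of 12 Fc and paired receptor genes 11 were lower. *Pirb*, an inhibitory receptor, had 4.01 and 2.09 CPM against 422, 232, 227 and 145 (-6.38 ± 0.86), and *Siglec1*, a sialic acid receptor of macrophages, had no count in DN1 and was at least 486-fold lower. Among cytokines and chemokines 15 of 21 were lower and none higher (median -6.09). With DN1 replicate 1 alone 6 were lower and with replicate 2 alone 10, and without control D2 *Il6* was called higher. *Ccl6* had 5.82 and 1.4 CPM against 1494, 415, 1568 and 289 (-8.01 ± 1.33), and *Il1rn*, the IL-1 receptor antagonist, 0.593 and 0 against 80.1, 245, 159 and 41.1 (-8.65 ± 1.34). Among chemoattractant receptors 9 of 10 were lower, *C3ar1* for a complement fragment standing at 0.26 and 0.0499 CPM against 1997, 429, 505 and 293 (-12.20 ± 1.41), and *Cxcr4*, which holds progenitors in marrow, at 57.8 and 89.7 against 274, 319.7, 292 and 195 (-1.87 ± 0.33). Both DN1 libraries lay below every control library in each of these genes.

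Interferon-stimulated genes were lower for 19 of 23 tested and higher for none (median -3.67), and none of the 17 members at 1 CPM or more in a DN1 library differed over 4-fold between the DN1 libraries. *Oasl2*, an antiviral synthetase relative, had 5.19 and 6.98 CPM in DN1 and 195, 160.2, 65.8 and 119 in the control (-4.47 ± 0.51, adjusted p = 0.000618). *Stat2*, which carries the interferon signal, had 14.1 and 7.28 against 80.6, 138, 59.7 and 79.5 (-3.06 ± 0.44). *Ifit3* had no count in DN1 and was at least 385-fold lower, and *Ifit1* had 1 count. With DN1 replicate 1 alone 12 members were lower and with replicate 2 alone 13.

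Receptors for cytokines were lower for 10 of 16 and higher for none (median -2.33), except that *Tgfbr1* was called higher without DN1 replicate 1. *Tnfrsf1b*, a TNF receptor, had 45.3 and 44.6 CPM in DN1 against 717, 674, 586 and 409 (-3.73 ± 0.31, adjusted p = 0.000145). *Csf2ra*, the GM-CSF receptor chain, had 12.3 and 3.09 against 118, 118, 140.0 and 123 (-4.01 ± 0.59), and *Il6ra*, whose ligand was in the medium of both groups, 2.49 and 1.15 against 26.4, 20.7, 52.8 and 78 (-4.60 ± 0.84). The shared gamma chain gene *Il2rg* had a log2FC of 0.00 ± 0.23 (adjusted p = 0.999). MHC class II and costimulation genes were lower for 5 of 13, among them *Cd86* (1.11 and 1.45 CPM against 23.8, 68.2, 40.9 and 24.8) and *Cd80*. Dendritic cell genes were lower for 3 of 7, eosinophil genes for 1 of 4 (*Epx*) and B cell genes for 2 of 3 (*Blnk* and *Cd22*), with none higher in any of these lists. The eosinophil count was none with either DN1 library alone or without control R2 and 3 by DESeq2 and with the label year as a block. The class II list depended on control D2, without which *H2-Oa* and *H2-Ob* were called higher and the median went from -3.87 to -2.41. It gave 8 lower without control D1 and 2 without DN1 replicate 2, and without the latter 1 dendritic cell gene was lower. *Itgax* (CD11c) had 35.6 and 116 CPM against 20.7, 47.3, 59.6 and 19.2 and did not pass, and *Ebf1* and *Pax5* of the B lineage were too low to test.

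Integrin genes were called in both directions. Of 15 integrin subunits 4 were higher and 5 lower. *Itgae*, the alpha chain that with *Itgb7* binds E-cadherin, had 17.2 and 17.3 CPM in DN1 and 0.728, 0.415, 0.235 and 0.183 in the control (5.54 ± 0.51, adjusted p = 0.000231), and *Itgb7* 235 and 240.3 against 96.9, 109.7, 56.7 and 89.4 (1.43 ± 0.25). *Itgam* and *Itgb2*, which together form the myeloid integrin Mac-1, fell to 47.7 and 24.7 and 85.9 and 57.7 CPM from 884, 818, 1016 and 504 and 1144, 895, 1136 and 494. The DN1 libraries were close in *Itgae* and *Itgb7* and lay above every control library. The others higher were *Itga2* and *Itga9*, and the others lower *Itgb5*, *Itga5* and *Itgav*. Without DN1 replicate 1, 2 subunits were lower, and without replicate 2, 3 were.

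Glycolysis genes were lower for 10 of 17 and higher for none (median -1.43). *Slc2a1*, the glucose transporter GLUT1, had 30 and 29.2 CPM against 111, 71.9, 108 and 116 (-1.78 ± 0.28), *Pgam1* 457 and 524 against 1269.9, 1582, 1337 and 1114 (-1.43 ± 0.24) and *Hk3*, a hexokinase of myeloid cells, 18.4 and 1.79 against 399, 409.9, 333 and 265 (-5.11 ± 0.88). *Gapdh* and *Ldha* did not pass, and with either DN1 library alone 5 of the 17 were lower. Without control D2 *Pfkm* was called higher. Of 10 Bcl2 family genes 5 were lower. *Mcl1* had 173 and 188 CPM against 599.6, 466, 652 and 459 (-1.59 ± 0.24), and *Bcl2l1*, which encodes BCL-XL, 11.6 and 13.7 against 94.5, 47.1, 84.2 and 40.3 (-2.39 ± 0.39). Eicosanoid synthesis genes were lower for 3 of 8, *Ptgs1* (COX-1) among them (26 and 10.9 CPM against 152, 149, 189 and 143). By DESeq2 6 of the 8 were lower. *Socs3*, a feedback inhibitor of IL-6 family signalling, fell from 71.9, 92.7, 122 and 114 CPM to 11.4 and 23.5 (-2.52 ± 0.41), while *Pim1* and *Pim2* did not pass, although *Pim2* was called higher in a fit of the 6 libraries alone (log2FC 1.26, adjusted p = 0.0289). None of 4 fetal program genes passed, *Lin28b* and *Hmga2* included, while 2 had an unadjusted p under 0.05, DESeq2 called 2 lower and edgeR with the label year as a block called 1 lower (*Igf2bp2*).

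Some of the strongest changes lay outside all lists. *Scin*, an actin-severing protein, held 2121 and 1639 CPM in DN1 and 6.61, 23.1, 4.96 and 15.1 in the control (7.24 ± 0.65, adjusted p = 0.000204). Together with *Mcpt1*, *Gzmb*, *Eef1g*, *Npm1* and *Ppia* it was among the 6 called genes outside the dose lists that gained most in share of reads. *Cd160*, a receptor of killer and T cells, had 47 and 60.6 CPM against 0, 0.231, 0.117 and 0.275 (8.29 ± 0.49). *Klk8*, a kallikrein protease, had 41.1 and 84.2 against 0.168, 0.138, 0 and 0.153 (9.13 ± 0.63), and the trypsin gene *Prss2* 80.6 and 204 against 0.168, 0.554, 0.0587 and 0.122 (9.37 ± 0.70). *Tph1*, the enzyme that commits tryptophan to serotonin and is active in mast cells, had 142 and 24.6 CPM against 0.784, 0.231, 0.0587 and 0.0305 (8.42 ± 1.40). *Prss2* lies among near-identical trypsin copies within the T cell receptor beta locus, so its counts are uncertain. The processed pseudogenes *Rpl31-ps12* (171 and 522 CPM in DN1 and 0.224, 0.738, 0.264 and 0.153 in the control) and *Gm5643* (35.6 and 110.1 and 0.336, 0.185, 0.235 and 0.427) share sequence with their parent genes and are uncertain for the same reason. *Eef1g*, *Npm1* and *Ppia*, highly expressed genes for translation and protein folding, rose by 0.91 to 1.23 on the log2 scale.

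The largest falls outside the lists were in genes with few or no counts in DN1. *Ptpro*, a receptor phosphatase, and *Kcnk13*, a potassium channel of microglia and macrophages, had no count in either DN1 library and were at least 223-fold and 291-fold lower, with 30.9, 45.3, 21.5 and 18.6 and 65.5, 22.1, 44.2 and 20 CPM in the control. *Sdc4*, a syndecan, had 1 count in DN1 and 146, 97.2, 138 and 67.9 CPM in the control. *Saa3*, an acute-phase protein, had 0.89 and 0.0499 CPM in DN1 and 458, 3195, 556 and 1038 in the control (-11.35 ± 1.56). *Ccl8*, *Htr2b* and *Vcam1* were also at 0 counts in DN1, but their control values spread from 0.323 to 109.8, 1.61 to 96.4 and 2.91 to 70.5 CPM, and with either DN1 library alone none of the 3 passed.

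By the share of genes over 4-fold apart and the correlation, the DN1 libraries agreed about as closely as the least alike control pair, and by the spread of the log2 ratio less closely than any other pair. Of 11485 genes at 1 CPM or more in the higher library, 697 (6.07%) were over 4-fold higher in replicate 1 and 391 (3.4%) in replicate 2, together 9.47%. Pairs within the control ranged from 1.83% to 9.6%, the DN2a pair gave 3.17% and the DN2b pair 8.93%. The correlation of log2(CPM + 1) across genes, which are not independent replicates, was 0.9324 for DN1 and 0.9215 to 0.9749 within the control. The standard deviation of the log2 ratio between libraries was 1.33 for DN1, the largest of the 9 pairs within groups, and 0.678 to 1.24 within the control. The control mean lay above both DN1 values for 280 of the 697 genes and between them for 292. For the 391 it lay above both for 82 and between them for 217. Alone against the 4 controls, DN1 replicate 1 gave 825 genes higher (6.84% of 12070 tested) and 1042 lower (8.63%). Replicate 2 gave 1350 higher (11.1% of 12121) and 1426 lower (11.8%). These 2 fits share the control, DN2a and DN2b libraries, and neither holds any spread between DN1 isolates.

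**Figure D5:**
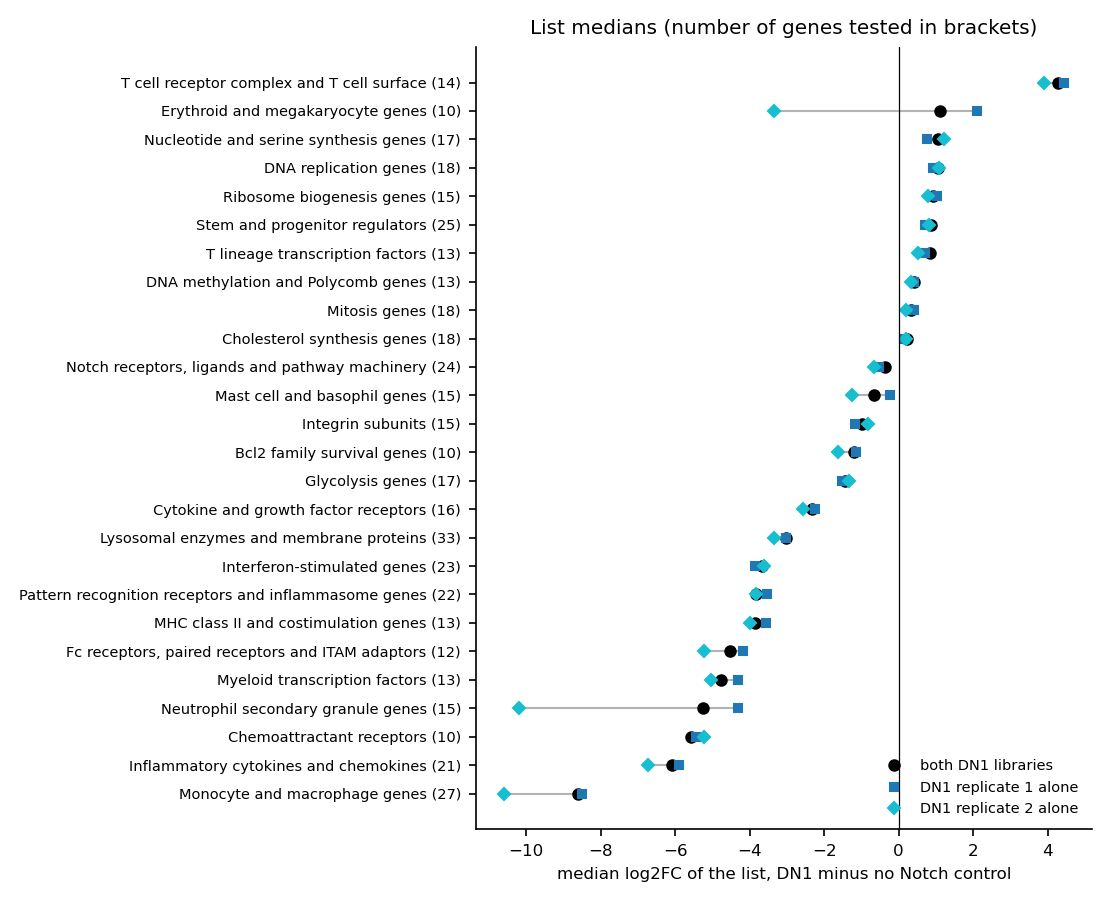
Median log2FC of DN1 minus the no Notch control over the tested members of each list with at least 10 of them, with both DN1 libraries (black) and with replicate 1 (blue squares) or replicate 2 (cyan diamonds) alone, all against the same 4 controls. The medians with single libraries lie farthest apart for the secondary granule list (-4.31 and -10.2) and for the erythroid list (2.11 and -3.36), where 10 and 7 genes could be tested.

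Of the 169 called genes named here, 105 were called in every fit that left out 1 of the 6 libraries, and 62 lost the call in at least 1 such fit. With either DN1 library left out, 24 lost it, among them *Fth1*, *Ftl1*, *Il7r*, *Gfi1*, *Fli1*, *Hey1*, *Hhex*, *Id3*, *Tcf12*, *Gins1*, *Abca1*, *Itga5*, *Itgav*, *Cd247*, *Cyp51*, *Ppia*, *Blnk*, *Epx*, *Aph1a*, *Tpsb2* and *Tpsab1*. Without replicate 1 alone, 15 others lost it, namely *Gata1*, *Gata2*, *Tal1*, *Erg*, *Ms4a2*, *Il1rl1*, *Slc18a2*, *Cyp11a1*, *Gm15915*, *Itga2*, *Itgb5*, *Ezh2*, *Tcf3*, *Lfng* and *Ly6a*. Without replicate 2 alone, 22 others did, namely *Elane*, *Ngp*, *Cebpe*, *Pf4*, *Ppbp*, *Prss34*, *Id2*, *Flt3*, *Mfng*, *Numb*, *Psen2*, *Maml1*, *Igf1r*, *Igf2r*, *Sparc*, *Tet1*, *Idi1*, *Paics*, *Tyms*, *Pola1*, *Npm1* and *Eef1g*. Among the controls, R1 decided most, with 25 calls lost without it, *S100a9* and *Ngp* among them, against 11 without D1, 7 without D2 and 14 without R2.

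By lineage, DN1 replicate 1 was over 4-fold higher for 14 of 15 secondary granule genes, 6 of 8 primary granule genes, 10 of 11 erythroid and megakaryocyte genes and 6 of 13 mast cell genes at 1 CPM in either library. None of these was over 4-fold higher in DN1 replicate 2. The gap was not limited to these lineages, since 9 of 14 monocyte and macrophage genes, 6 of 11 cytokine genes and 4 of 9 class II and costimulation genes were also over 4-fold higher in replicate 1. Among the 10 genes of at least 20 CPM that differed most in favour of replicate 1 were *Car1*, *Gm5148*, *Gm15915*, *Pklr* and *Add2*. *Car1*, a carbonic anhydrase of red cell precursors, had 38.8 and 0 CPM in DN1. *Gm5148* is annotated as protein coding and had 135 and 0, and *Gm15915*, annotated as antisense, 137 and 0.499. The counting strand is not given in the sources used here, so the last may hold reads of an overlapping gene. *Pklr*, a red cell pyruvate kinase, had 35.7 and 0.0997 CPM and *Add2*, a membrane skeleton protein of red cells, 33.9 and 0.0997. Among the 10 genes farthest apart in favour of replicate 2 were *Col4a1*, *Fn1* and *Sparc*. *Col4a1*, a basement membrane collagen, had 0.148 and 23.4 CPM and 0.56, 0.554, 0.235 and 0.366 in the control, and *Fn1* (fibronectin) 0.334 and 23.6 and 227, 423, 153 and 167. *Sparc*, a matrix glycoprotein, had 2.08 and 28.8 CPM against 0.112, 0.138, 0.147 and 0.0916 and was called higher in DN1 (6.91 ± 1.56), but not with DN1 replicate 1 alone (adjusted p = 0.119). Within the progenitor list, *Flt3*, *Mecom*, *Hoxa5*, *Hoxa7*, *Hoxa9* and *Procr* were over 4-fold higher in replicate 2, and *Gata2* in replicate 1.

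*Xist*, the RNA that coats the inactive X chromosome of female cells, stood at 0.0371 and 29 CPM in DN1 and 1.23, 20.9, 34.9 and 63.9 in the control. The Y-linked genes *Ddx3y*, *Eif2s3y*, *Kdm5d* and *Uty*, added after their values were seen, had 26.8 and 11.1, 43.1 and 9.82, 19.6 and 5.29 and 12.7 and 5.48 CPM in DN1. In the control they ranged from 7.01 to 39.2, 10.8 to 52.8, 2.11 to 14.8 and 2.91 to 22.8 CPM. DN1 replicate 1 held 1 count of *Xist* and the higher levels of all 4 Y-linked genes, while replicate 2 and all 4 control libraries held reads of *Xist* and of the Y-linked genes. The part of the animals' sex in the difference between the DN1 libraries was not tested.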

How the data were processed

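RNA was prepared with an RNeasy Plus Mini kit, made into TruSeq Stranded Total RNA libraries and sequenced on an Illumina HiSeq. According to the study's methods and the submitters' processing notes, the first 36 bases of read 1 were aligned to mm10 with TopHat2 (2.12) and counted with HTSeq (0.6.1p1, intersection-strict). The annotation and the strand setting are not given in the sources used here. The deposited files hold raw counts per gene made by the authors, with 24062 gene rows and 5 summary lines, which were left out of library sizes and tests and held 20.46% to 28.62% of reads in the 6 libraries. In the files 27 gene symbols had turned into dates. Of the gene rows, 12221 reached 1 CPM in 2 or more of the 10 libraries and were tested with edgeR 4.0.16 (R 4.3.3; TMM, glmQLFit and glmQLFTest, Benjamini-Hochberg adjustment, threshold 0.05), with the 4 groups sharing 1 estimate of the spread (common dispersion 0.189). The standard error is the log2FC divided by the root of the F statistic. On counts simulated for DN1 minus control over the 12221 genes, 88 of 200 genes changed by a log2FC of 2 were recovered, with 3 false calls. The simulation gave every gene the common dispersion and, apart from the 200, the same mean in all groups. In the data the spread differs by gene and many genes differ between groups, so these rates do not carry over to them. Alternatives were DESeq2 1.42.0, other filters, scalings and sample sets, and leaving out each library.

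The comparison, the gene lists and the members were chosen with earlier results of these data known. The dose lists were read from the study's supplement only to set their genes apart. Named genes followed a rule. It took the 4 members of each list with the smallest adjusted p and up to 2 called against the list's majority, and every neutrophil gene. Outside the lists it took the 10 largest changes each way with at least 20 CPM in the higher group. It also took the 6 largest changes in read share each way, the 10 genes each way farthest apart between the DN1 libraries and the gate genes. Other list members and the Y-linked genes were chosen after their values were seen. Some members are counted with their lists and not reported here by name.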

Additional observations from a re-analysis of the deposited data

Results flagged for a closer look

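Among the 4 control libraries, 1 library stood far from the other three for some of the genes and list sums reported, by Dixon's criterion. In all 270 genes and sums were tested and 29 met it. Its rate of about 1 in 20 holds for normally distributed values, while CPM were entered here without logs. The 29 are therefore not set against that rate and only point to values worth a look. For *Heyl* and *Trat1* the other control libraries held no count, so any count met the criterion. DN1, with 2 libraries, could not be tested in this way.

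Control D2 was the library apart for several lineage genes. Its summed level of MHC class II and costimulation genes was 2321.2 CPM against 137.5 to 462.4 in the other three, and its summed glycolysis genes were 25679.4 against 12389.4 to 13265.4, with *Gapdh* at 2147.6. *Elane* stood at 7005.5 CPM against 528.5 to 1415.1. D2 was also the highest for the low genes *H2-Oa* (15.9 CPM), *H2-Ob* (9.96), *Gata1* (5.07), *Gfi1b* (6.6), *Car1* (1.85), *Gm15915* (1.25), *Add2* (1.11), *Notch3* (0.507), *Prf1* (0.646), *Txk* (0.369) and *Heyl* (0.0461).

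Control D1 was apart for *C3ar1* at 1997.1 CPM against 292.8 to 504.7, *Htr2b* at 96.4 against 1.61 to 11.8 and *Blnk* at 74.8 against 3.2 to 9.1. Its summed fetal program genes were 128.9 CPM against 17.3 to 29.4, with *Hmga2* at 44.7 and *Igf2bp2* at 36.6, and its summed imprinted genes 96.0 against 46.6 to 50.8. It was also the highest for *Cma1* (14.1 CPM), *Itga9* (8.29), *Mcpt4* (5.38) and *Hey1* (2.47). Control R2 was apart for *Ezh2*, at 88.6 CPM against 48.5 to 53.4. Control R1 was apart for genes near the counting floor, *Cd247* (0.294 CPM) and *Trat1* (0.0587).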

How the results depend on the processing

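No gene was called in the opposite direction under any of the 14 alternatives, and DESeq2 called 1744 of the 1753 higher and 2080 of the 2081 lower genes. The number of genes higher fell to 906 with controls D1 and D2 only, and lay between 825 and 1997 when 1 library was left out. The lowest values were 825 without DN1 replicate 2 and 1086 without control R1. Genes lower lay between 1042 (without DN1 replicate 2) and 2164. Without a filter on low counts 1565 genes had a log2FC of at least 2 and 4059 one of at most -2. Genes over 4-fold apart between the DN1 libraries numbered 1088, 513 with a minimum of 5 CPM and 2815 when 2-fold counted as apart. With the label year as a replicate block among the DN libraries, 1710 genes were higher and 2151 lower. No paired analysis was possible between DN1 and the control, because their labels share no replicate numbers.

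Signs that turned belonged to genes not called. *Xist* went from -1.07 to 0.34 with controls D1 and D2 only, and *Serpinb1a* from -0.26 to 0.02 with scaling to library size alone. With that scaling *Ddx3y*, *Eif2s3y* and *Uty* came to 0.29, 0.32 and 0.3, and with controls R1 and R2 only to 0.33, 0.55 and 0.65. *Ddx3y* was 0.01 in a fit of the 6 libraries alone. When 1 library was left out, the values ranged from -1.45 to 5.8 for *Col4a1*, from -0.04 to 1.66 for *Itgax*, from -0.52 to 0.13 for *Serpinb1a*, from -0.78 to 0.61 for *Ddx3y*, from -1.44 to 0.7 for *Eif2s3y*, from -0.43 to 1.47 for *Kdm5d* and from -0.76 to 0.91 for *Uty*. With controls D1 and D2 only *Cx3cr1* was -0.03 and *Il2rg* -0.13, and with R1 and R2 only *Cma1* was 1.24, *Gapdh* 0.12 and *Notch1* -0.24. *Gapdh* was 0.15 with scaling to library size alone. *Il2rg* was -0.05 by DESeq2 and -0.02 without a filter. Under the label year block *Cx3cr1* was -0.27 and *Mecom* -0.17. Leaving out 1 library gave ranges of -1.25 to 1.19 for *Cma1*, -1.4 to 0.86 for *Cx3cr1*, -0.25 to 0.16 for *Gapdh*, -1.06 to 1.55 for *Hoxa5*, -1.09 to 1.8 for *Hoxa7*, -0.14 to 0.07 for *Il2rg* and -0.69 to 1.51 for *Tgfbr1*. The cause was not tested.

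Each of the 6 libraries held 18489684 gene reads or more, so counting error limits mainly genes near the floor of 3 counts. DN1 had 2 libraries. Genes with a large gap between them, such as *Mpo*, *Elane* and *Mmp8*, carried standard errors above 1 on the log2 scale. The p-values rest on the spread within all 4 groups, DN2a and DN2b included, and not on that of the DN1 libraries alone.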
